A study of Mus musculus with 9 samples.

Results

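The 10 genes described here encode syntaxin 18 (Stx18), the SNARE proteins that form a complex with it at the endoplasmic reticulum (Use1, Bnip1 and Sec22b), the tether that captures incoming vesicles for that complex (Nbas, Rint1 and Zw10), the Sec1/Munc18-family genes Scfd1 and Scfd2, and syntaxin 5 (Stx5a), the partner of Sec22b on the route to the Golgi. They were chosen by symbol from knowledge of the complex, with Stx18 as the anchor because its transcript fell steeply in the libraries labelled Zbtb11 KO. All 10 symbols matched a gene row of the count files, out of 37310 rows, and all 10 passed the filter on low counts, as did 16224 genes in all. The values of Stx18 in the KO-labelled libraries chose the group and are therefore given as a description with no test.

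The cells were ES cells (mouse embryonic stem cells) derived from the E14 line, grown without feeder cells on gelatin with LIF, a cytokine that keeps ES cells undifferentiated. The ethanol control was the Zbtb11lox/lox line with ERt2-Cre at the Rosa26 locus, kept for 72 h with the carrier ethanol. The Zbtb11 KO group was the same line kept for 72 h with 250 nM 4-hydroxytamoxifen (4OHT), the ligand that releases ERt2-Cre to act on the loxP-flanked Zbtb11 alleles. The 4OHT control was Zbtb11WT/WT with an unmodified Rosa26 locus, kept with 250 nM 4OHT for the same time. Zbtb11 encodes a zinc finger and BTB domain protein of the transcription factor type. The 3 groups had 3 libraries each, and all 9 came from rRNA-depleted total RNA in bulk, where fewer cells of a type and less RNA per cell cannot be told apart. Ethanol-treated floxed cells and 4OHT-treated wild-type cells differ in both drug and line, so those effects cannot be told apart in the comparison of the controls. The KO group also differs from the ethanol control in drug and Cre activity, and from the 4OHT control in line and the presence of ERt2-Cre. No group had active Cre with unmodified Zbtb11, so neither KO comparison separates loss of Zbtb11 from these differences. The labels do not say whether each line was 1 clone or whether replicates were separate cultures, so p-values measure only the spread between these libraries.

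SNARE proteins sit on vesicles and on target membranes and zip together to fuse them. Syntaxin 18 is the SNARE of the endoplasmic reticulum membrane that receives COPI-coated vesicles returning from the Golgi, and it pairs with Use1, Bnip1 (the mammalian Sec20) and the vesicle SNARE Sec22b. The tether of Nbas, Rint1 and Zw10, known as NRZ, is the counterpart of the yeast Dsl1 complex and docks vesicles at that site. Scfd1 (Sly1) is the Sec1/Munc18 protein that binds both syntaxin 18 and syntaxin 5 and assists SNARE assembly. Several of these proteins have other reported roles: Zw10 works at the kinetochore in mitosis, Rint1 was found as a partner of the DNA repair protein Rad50, and Nbas has been linked to nonsense-mediated RNA decay.

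The promoter sequences upstream of the 2 genes with the lowest remaining share of control transcript are printed first, because a 6-letter word in them recurs in genes that fell in the KO-labelled libraries. The sequences are RefSeq promoter windows on GRCm38.p6, printed 5′ to 3′ on the strand of the gene for the 250 bases before the transcript start. Capitals mark the word CGGAAC. How the word was chosen, and how often it occurs elsewhere, follows after the transcript levels.
Stx18 (chr5:38038980-38039229, plus strand): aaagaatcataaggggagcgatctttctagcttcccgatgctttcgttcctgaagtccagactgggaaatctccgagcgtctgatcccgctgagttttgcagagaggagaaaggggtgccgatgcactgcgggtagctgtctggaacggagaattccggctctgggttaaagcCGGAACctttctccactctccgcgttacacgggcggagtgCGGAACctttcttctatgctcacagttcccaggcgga
Sec22b (chr3:97900977-97901226, plus strand): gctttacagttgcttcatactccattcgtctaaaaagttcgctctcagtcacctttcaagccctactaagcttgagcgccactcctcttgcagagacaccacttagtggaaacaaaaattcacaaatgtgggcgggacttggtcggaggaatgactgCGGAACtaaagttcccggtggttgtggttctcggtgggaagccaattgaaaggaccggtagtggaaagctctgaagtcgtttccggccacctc

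The files held between 16909139 and 23544893 reads in genes per library. Zbtb11 itself stood at 355 ± 6.70 CPM (counts scaled by library size with TMM factors; mean ± SD, n = 3) in the ethanol control, 377 ± 8.47 in the KO-labelled libraries and 368 ± 9.31 in the 4OHT control. The count over the whole gene was not lower in the KO-labelled libraries (log2 fold change 0.09, adjusted p = 0.17), so it checks neither the labels nor loss of the protein. Reads that fell in no annotated gene made up 32.7% to 33.8% of the reads in the KO-labelled libraries, 26.4% to 28.7% in the ethanol control and 26.7% to 27.5% in the 4OHT control. Their part in the differences below was not tested. The 10 ES cell markers were expressed in every group, with a summed level of 4005 to 4302 CPM in the ethanol control, 3765 to 4161 in the KO-labelled libraries and 4044 to 4740 in the 4OHT control. Of them 1 fell and 0 rose in the KO-labelled libraries against the ethanol control at the threshold used throughout, an adjusted p under 0.05 in edgeR (1 rose by DESeq2 and 1 at an unadjusted p under 0.05), and 4 fell and 2 rose with the replicate number as a block. Against the 4OHT control 5 fell (Pou5f1, Zfp42, Esrrb, Klf2 and Dppa5a; 5 by DESeq2, 6 with the block) and 0 rose (0 by DESeq2, 1 at an unadjusted p under 0.05, 1 with the block). These falls numbered 3 without 4OHT control replicate 1 and 2 with library totals in place of TMM scaling. The largest difference the other way was that of Nanog, which was not called. It stood at 578 CPM in the ethanol control, 600 in the KO-labelled libraries and 455 in the 4OHT control. Between the controls, 3 of the 10 markers rose in the 4OHT control (6 with the block) and 0 fell by edgeR or DESeq2 (2 with the block). The 9 fibroblast markers summed to 18.9 to 23.01, 22.8 to 23.97 and 18.4 to 19.0 CPM in the same order, with Lum at 0 in the ethanol control. The 11 matched markers of early lineages summed to 56.0 to 65.1, 62.2 to 73.5 and 67.4 to 83.8 CPM, and 3 of the 10 tested rose against the ethanol control (1 to 3 over the alternatives), of which Gata6, from 1.58 ± 0.39 to 3.63 ± 0.71 CPM, kept its call under all 16 alternatives. Of these 10, 3 rose and 1 fell against the 4OHT control, and of the 4 fibroblast markers tested 2 rose and 1 fell. Over all genes tested, 14.2% fell and 13% rose against the ethanol control, and 19.8% fell and 19.1% rose against the 4OHT control. With the block, 3625 of the 16224 genes fell and 3311 rose against the ethanol control. The block gave 4198 falls and 4139 rises over all genes against the 4OHT control. The part of these marker levels in the differences below was not tested.

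Against the ethanol control, the KO-labelled libraries held 6.24% of the Stx18 transcript and 29.1% of the Sec22b transcript. Scfd1 and Nbas fell by smaller amounts, Rint1 rose, and Use1, Bnip1, Scfd2, Zw10 and Stx5a were not called. Of the 9 genes other than Stx18, 3 fell and 1 rose. Over all genes tested, 27.2% were called in this comparison, 14.2% as lower and 13% as higher, and the members were chosen with these results known, so nothing is read from their count. The median log2 fold change of all 10 genes was -0.11, beside 0.01 over all genes tested. The members did not move together, and they are described one by one in the order of their roles.

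**Figure D1:**
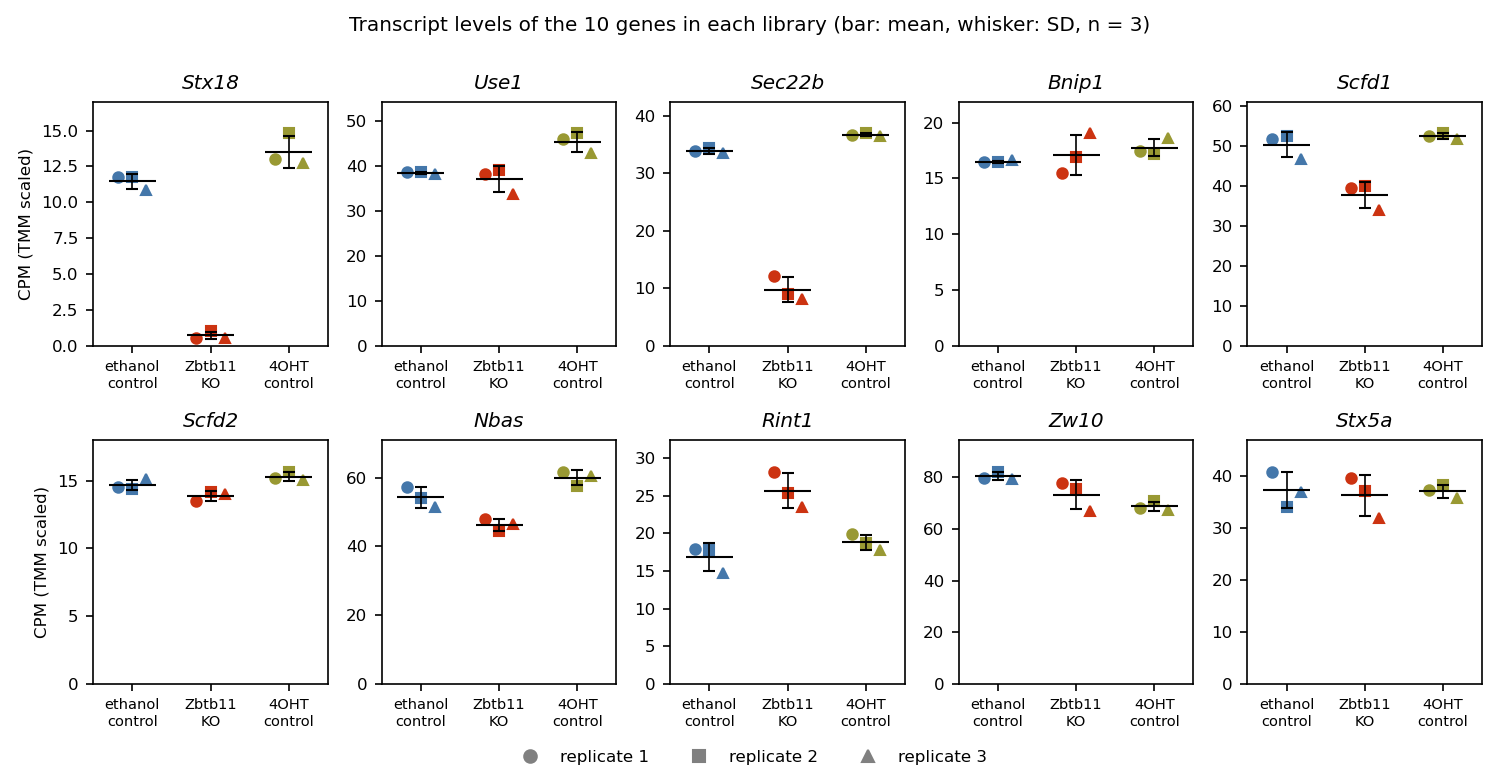
Transcript level of each of the 10 genes in each library (y axis, CPM after TMM scaling, each panel starting at 0) for the ethanol control, the labelled Zbtb11 KO and the 4OHT control, with the bar at the mean and the whisker at 1 SD over 3 libraries. Stx18 lies between 0.552 and 1.02 CPM in the KO-labelled libraries and between 10.9 and 14.8 CPM in the control libraries, Sec22b is lower in all 3 KO-labelled libraries, and Rint1 is higher in all 3.

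Stx18 was measured at 11.7, 11.8 and 10.9 CPM in ethanol control replicates 1, 2 and 3. The KO-labelled libraries gave 0.552, 1.02 and 0.572 CPM, and the 4OHT control 13.0, 14.8 and 12.7 CPM. The KO-labelled libraries lay far below every control library, and the 2 control groups lay close together. These levels rest on 11 to 21 reads per KO-labelled library and on 182 to 274 per control library. The log2 fold change was -4.00 (SE 0.18) against the ethanol control and -4.23 (SE 0.18) against the 4OHT control, which leaves 6.24% and 5.32% of the control transcript. Among the 16224 genes tested, this was the 7th steepest fall against the ethanol control and the 18th against the 4OHT control. A share of 0.185% of the genes tested fell at least 8-fold against the ethanol control and 0.314% against the 4OHT control. Set beside the ethanol library of the same number, the KO-labelled libraries held 4.70%, 8.68% and 5.26% of the Stx18 transcript. Replicate 2 retained the most in both comparisons.

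Sec22b, the vesicle SNARE that pairs with syntaxin 18 on return to the endoplasmic reticulum and with syntaxin 5 on the outward route, was the other steep fall of the group. Its levels were 33.8, 34.4 and 33.5 CPM in ethanol libraries 1, 2 and 3. The KO-labelled libraries held 12.2, 9.05 and 8.11 CPM, and those of the 4OHT control 36.8, 37.0 and 36.5 CPM. All 3 KO-labelled libraries lay far below all 6 control libraries, which spanned a narrow range. The log2 fold change was -1.78 (SE 0.11, adjusted p = 5.4e-09) against the ethanol control, or 29.1% of the control level remaining. Against the 4OHT control it was -1.90 (SE 0.11, adjusted p = 1.6e-09), or 26.8% remaining. KO-labelled replicate 1 retained 36.0% of the ethanol library with its number, replicate 2 retained 26.3% and replicate 3 retained 24.2%. The replicate with the most Sec22b was thus not the replicate with the most Stx18. Sec22b fell under each of the 16 alternative analyses, with log2 fold changes from -1.99 to -1.67 against the ethanol control.

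The remaining SNARE genes were not called against the ethanol control. Use1, which completes the complex as one of its target-membrane SNAREs, gave 38.5, 38.6 and 38.1 CPM with ethanol, while the KO-labelled libraries gave 38.1, 39.1 and 33.7. These groups overlapped, and the log2 fold change of -0.06 was not called (95% confidence interval -0.22 to 0.11, adjusted p = 0.59). The 4OHT control lay higher, at 46.0, 47.2 and 42.8 CPM. Use1 therefore rose in the 4OHT control against the ethanol control (log2 fold change 0.24, SE 0.07, adjusted p = 0.023) and fell in the KO-labelled libraries against the 4OHT control (-0.29, SE 0.07, adjusted p = 0.0030). Leaving out any 1 ethanol control library, or replicate 1 or 2 of the 4OHT control, took the call between the controls away (adjusted p from 0.059 to 0.090). The size of the Use1 difference thus depends on which control is used, and it was not called against the control of the same line.

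Bnip1, which also has a BH3 motif of the kind found in regulators of cell death, ranged from 16.4 to 16.6 CPM in the ethanol control, from 15.4 to 19.0 in the KO-labelled libraries and from 17.2 to 18.6 in the 4OHT control. Its groups overlapped in both KO comparisons, and neither was called. The 95% confidence interval of its log2 fold change ran from -0.17 to 0.27 against the ethanol control and from -0.27 to 0.16 against the 4OHT control. Stx5a, the Golgi syntaxin, ranged from 34.1 to 40.9, from 32.0 to 39.6 and from 35.7 to 38.2 CPM in the 3 groups in the same order. Its confidence interval was -0.24 to 0.17 against the ethanol control and -0.24 to 0.18 against the 4OHT control. Changes of Bnip1 or Stx5a as large as that of Sec22b lie outside those intervals.

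**Figure D2:**
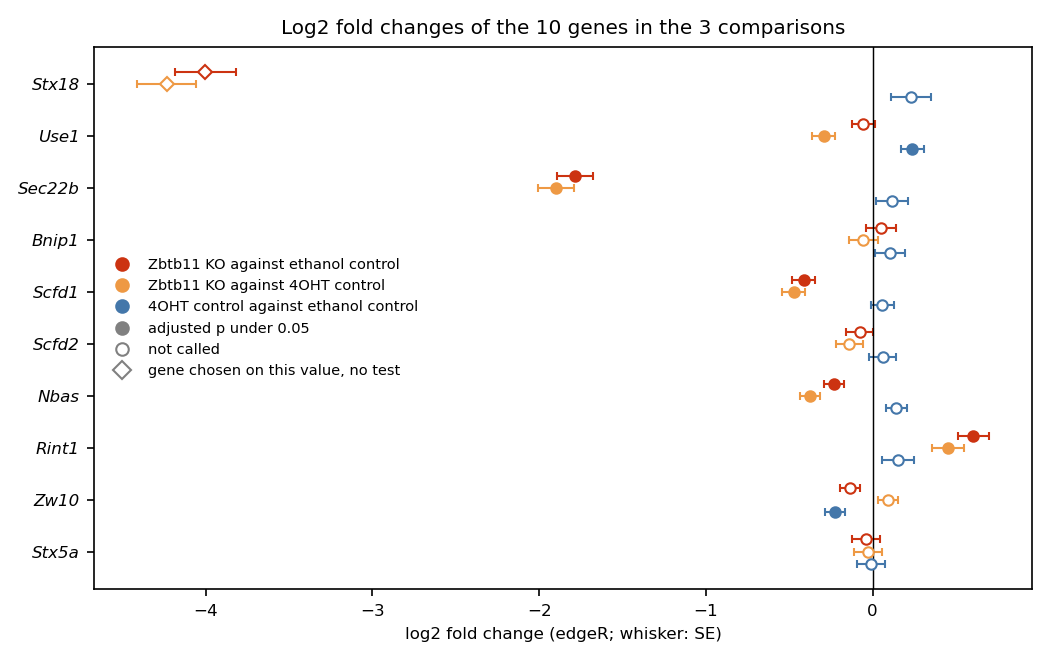
Log2 fold change (x axis) of each gene in the KO-labelled libraries against the ethanol control, in the KO-labelled libraries against the 4OHT control, and in the 4OHT control against the ethanol control, with whiskers of 1 SE from the edgeR fit of 9 libraries. Filled points passed an adjusted p under 0.05, and diamonds mark Stx18, which was chosen on those values and not tested. Stx18 and Sec22b stand apart to the left, and Rint1 is the only gene with a filled point to the right of 0 in both KO comparisons.

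Scfd1, the Sec1/Munc18 protein shared by syntaxin 18 and syntaxin 5, was present at 51.6, 52.5 and 46.7 CPM in the ethanol control. The KO-labelled libraries gave 39.3, 39.9 and 34.0 CPM and the 4OHT control 52.5, 53.1 and 51.8 CPM. All KO-labelled libraries lay below all control libraries, and in each group replicate 3 was the lowest. Scfd1 fell with a log2 fold change of -0.41 (SE 0.07, adjusted p = 0.00048) against the ethanol control and -0.47 (SE 0.07, adjusted p = 7.4e-05) against the 4OHT control. The remaining share of its transcript was 75.1% and 72.0%. Scfd2, a less studied gene of the same family, ranged from 14.4 to 15.1 CPM in the ethanol control, from 13.5 to 14.2 in the KO-labelled libraries and from 15.1 to 15.7 in the 4OHT control. Its KO-labelled libraries were all lower than the controls, but the difference was not called against either (log2 fold change -0.08, adjusted p = 0.52, and -0.14, adjusted p = 0.20). Groups that do not overlap in this direction were found for 20.5% of all genes tested against the ethanol control and for 23.7% against the 4OHT control.

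The 3 tether genes went different ways. Nbas, the largest subunit, was present at 57.3, 54.1 and 51.4 CPM in the ethanol control, 48.0, 44.4 and 46.4 in the KO-labelled libraries and 61.8, 57.6 and 60.6 in the 4OHT control. The KO-labelled libraries were lower than every control library. Nbas fell with a log2 fold change of -0.23 (SE 0.06, adjusted p = 0.010) against the ethanol control and -0.38 (SE 0.06, adjusted p = 0.00016) against the 4OHT control. The call against the ethanol control was lost when library totals replaced TMM scaling (log2 fold change -0.16, adjusted p = 0.074). Between the controls, Nbas was 0.14 higher in the 4OHT control on the log2 scale, which was not called (adjusted p = 0.12). With the replicate number as a block, this difference was called (adjusted p = 0.021).

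Rint1 moved in the other direction. It was measured at 17.98, 17.8 and 14.7 CPM in the ethanol control, 28.2, 25.3 and 23.5 in the KO-labelled libraries and 19.9, 18.7 and 17.8 in the 4OHT control. Every KO-labelled library was above every control library, which held for 21.3% of all genes tested against the ethanol control and for 24.5% against the 4OHT control. The rise was 1.52-fold against the ethanol control (log2 fold change 0.61, SE 0.10, adjusted p = 0.00025) and 1.37-fold against the 4OHT control (0.45, SE 0.09, adjusted p = 0.0014). Within replicate numbers, the KO-labelled libraries held 157%, 142% and 160% of the ethanol level. Rint1 rose under each of the 16 alternative analyses, with log2 fold changes from 0.52 to 0.68 against the ethanol control and from 0.38 to 0.54 against the 4OHT control.

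Zw10 had the highest level of the group per kb of merged exons in the ethanol control and separated the controls rather than the KO-labelled libraries. It stood at 80.0, 82.3 and 79.5 CPM in the ethanol control, 77.7, 75.3 and 67.1 in the KO-labelled libraries and 68.2, 70.9 and 67.5 in the 4OHT control. The KO-labelled libraries were all below the ethanol control and overlapped the 4OHT control. Zw10 fell in the 4OHT control against the ethanol control (log2 fold change -0.23, SE 0.06, adjusted p = 0.014), with all 3 libraries lower, as held for 17% of all genes tested. That call was lost without ethanol control replicate 2 (adjusted p = 0.056). In the KO-labelled libraries its log2 fold change was -0.13 (adjusted p = 0.10) against the ethanol control, which was called with the replicate number as a block (adjusted p = 0.014), and 0.09 (adjusted p = 0.23) against the 4OHT control.

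Against the 4OHT control, 4 of the 9 genes other than Stx18 fell (Use1, Sec22b, Scfd1 and Nbas) and 1 rose (Rint1), where 38.9% of all genes tested were called, 19.8% as lower and 19.1% as higher. The median over the 10 genes was -0.22, beside 0.02 over all genes tested. Between the 2 controls, 1 of the 10 genes rose (Use1) and 1 fell (Zw10), beside 18.4% of all genes tested, 9.66% as higher and 8.75% as lower. Stx18 was higher in all 3 libraries of the 4OHT control than in the ethanol control, by a log2 fold change of 0.23 that was not called (SE 0.12, adjusted p = 0.21), and the groups did not overlap in that direction for 18.1% of all genes tested. The comparisons of the KO-labelled libraries share those libraries, and each shares a control with the comparison of the controls.

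The 10 genes were also ordered by level within each group, in CPM per kb of merged exons, since levels of different genes compare only per length. In the ethanol control Zw10 came first at 21.1 CPM per kb, followed by Use1 at 17.4 and Sec22b at 8.53. Stx5a at 6.42 and Nbas at 5.71 overlapped. Scfd1 at 3.82 and Bnip1 at 3.23 came next, then Stx18 at 2.50 and Rint1 at 2.27, which overlapped, and last Scfd2 at 1.79. Stx18 was therefore one of the lower members even in the controls, and the gene that stands for the complex was not its most abundant transcript.

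In the KO-labelled libraries Zw10 at 19.2 CPM per kb and Use1 at 16.8 overlapped at the top. Stx5a at 6.24 and Nbas at 4.86 followed. Rint1 at 3.47, Bnip1 at 3.35, Scfd1 at 2.87 and Sec22b at 2.46 each overlapped their neighbour. Every Rint1 value lay above every value of Scfd1 and Sec22b, and the rest of the order of these genes is not resolved. Scfd2 at 1.70 came next and Stx18 at 0.156 last, with no overlap. In the 4OHT control the order was that of the ethanol control with Use1 at 20.6 ahead of Zw10 at 17.998, and only Stx5a at 6.38 and Nbas at 6.31 overlapped. With the length of the longest transcript in place of merged exons, all 10 levels moved beyond the replicate spread and the order changed. Use1 at 36.1 CPM per kb then led the ethanol control ahead of Zw10 at 28.2, and Stx18 at 3.82 was last beside Scfd2 at 3.83.

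**Figure D3:**
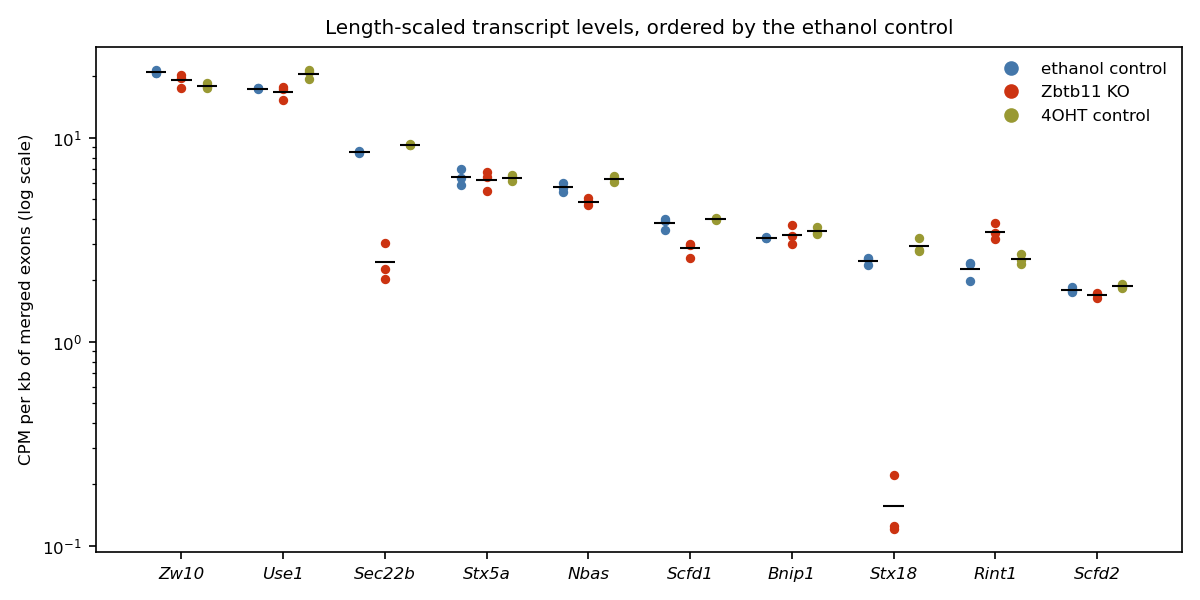
Length-scaled level of the 10 genes (y axis, CPM per kb of merged exons, log scale) in each library of the 3 groups, with the bar at the group mean, ordered by the ethanol control. Stx18 drops from 2.50 to 0.156 CPM per kb and Sec22b from 8.53 to 2.46 in the KO-labelled libraries, while Rint1 goes from 2.27 to 3.47.

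The genes whose pattern was most like that of Stx18 were sought by the root mean square difference of log2 CPM, centred on the ethanol control mean, over the 9 libraries and among 10876 tested genes with a symbol and a mean log2 CPM of at least 2. The closest was Nkap, a nuclear regulator of transcription and splicing, with a difference of 0.21 and levels of 28.4, 2.10 and 30.6 CPM in the ethanol control, labelled KO and 4OHT control. The gene 5730455P16Rik followed at 0.23 (26.1, 2.06 and 30.6 CPM). Wdr36, a factor of small ribosomal subunit assembly, differed by 0.25 (177, 13.9 and 181 CPM). Alg3, a mannosyltransferase that builds N-glycans in the endoplasmic reticulum, also differed by 0.25 (23.2, 1.72 and 28.6 CPM). Zmpste24, a protease of the endoplasmic reticulum and nuclear membranes that matures lamin A, differed by 0.26 (52.6, 3.62 and 65.7 CPM). None of the other 9 genes of the complex was among these 5. That follows from their smaller changes given above, because the measure is set mainly by the size of the fall in the KO-labelled libraries. Nothing further is read from it. With Pearson correlation in place of this measure, 0 of the 5 remained among the closest 5. In the order given, they held ranks 11, 9, 23, 34 and 49 of the 10876 genes by correlation. Which genes come closest thus depends on the measure, while these 5 stayed near the top.

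On the chromosome, Stx18 lies between Msx1 and Zbtb49 on chromosome 5. Msx1 was barely detected, at 0.52 CPM with ethanol and 0.91 CPM in the KO-labelled libraries, and was not called (adjusted p = 0.077). Zbtb49 rose from 7.42 ± 0.67 to 10.5 ± 0.81 CPM in the KO-labelled libraries (log2 fold change 0.50, adjusted p = 0.0036) and stood at 7.50 ± 0.40 CPM in the 4OHT control. The steep fall of Stx18 was thus not shared by its neighbouring genes. Nsg1 overlaps Stx18 on the other strand and had 0.71, 0.81 and 0.95 CPM in the 3 groups, similar to what remained of Stx18 in the KO-labelled libraries. Whether strand was used in counting is not known from the labels, and reads of the 2 genes may not have been told apart. Nbas, Rint1 and Scfd2 also overlap other annotated genes, but those with a row in the files had at most 0.31 CPM as a group mean.

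The wider transport machinery was examined through lists of genes that act before, beside and after the syntaxin 18 complex. Counts are given against each control, the ethanol control where none is named, with the replicate number as a block where it changed them. They are read beside the 16224 genes tested, of which 4417 were called against the ethanol control (27.2%) and 6936 with the block, and 6319 against the 4OHT control (38.9%) and 8337 with the block. Of those called with the block, 3625 fell and 3311 rose against the ethanol control, and 4198 fell and 4139 rose against the 4OHT control. A few single genes of the lists fell steeply. Among the 17 genes of the COPI coat and its Arf cycle, which forms the vesicles that syntaxin 18 receives, 1 fell and 2 rose against the ethanol control, with a median of -0.01. With the replicate number as a block, 4 fell and 6 rose. Against the 4OHT control 2 fell and 2 rose (4 and 3 with the block). Copz1, a coat subunit, fell (log2 fold change -0.26, adjusted p = 0.0042) but was not called against the 4OHT control (adjusted p = 0.28). Gbf1, the exchange factor that activates Arf at the Golgi, rose by 0.19 (adjusted p = 0.013), a call lost without KO-labelled replicate 1.

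The COPII coat, which carries cargo in the opposite direction, held 2 steep falls. Of its 15 genes 3 fell and 2 rose, and with the block 7 fell and 4 rose. The counts against the 4OHT control were 4 and 3 (5 and 3 with the block). The median was -0.09. Sar1b, the GTPase that starts coat assembly, went from 32.9 ± 0.49 to 7.96 ± 0.69 CPM (log2 fold change -2.04, adjusted p = 2.2e-11), with 38.3 ± 1.84 CPM in the 4OHT control. Sec13, a subunit of the outer coat and also of the nuclear pore, went from 128 ± 3.36 to 39.5 ± 1.35 CPM (-1.70, adjusted p = 1.1e-12). Its 4OHT control level was 87.9 ± 1.48 CPM, so Sec13 also fell between the controls (-0.54, adjusted p = 2.0e-06). Sec31a, the partner of Sec13 in the outer coat, fell by less (-0.22, adjusted p = 0.0039).

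Among 9 tested Golgi SNAREs, 2 fell and 2 rose, with or without the block, and the median was -0.05. Against the 4OHT control 2 fell and 3 rose, also with the block, and the median was 0.12. Stx16, a syntaxin of the trans-Golgi network, went from 43.7 ± 0.91 to 5.45 ± 0.87 CPM (log2 fold change -3.01, adjusted p = 9.4e-13) and stood at 38.1 ± 0.43 CPM in the 4OHT control. Vti1a, which pairs with Stx16 in fusion of endosome-derived vesicles, went from 10.5 ± 1.12 to 1.84 ± 0.30 CPM (-2.51, adjusted p = 1.4e-08), with 10.8 ± 1.69 CPM in the 4OHT control. Bet1l rose (0.62, adjusted p = 0.00072). Stx6, another SNARE of that network, was not called (0.02, adjusted p = 0.91).

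Among 14 exocyst and GARP genes, 2 fell and 3 rose (2 and 4 with the block), and against the 4OHT control 3 fell and 2 rose (5 and 3 with the block). Vps51, a subunit of the GARP tether, went from 14.6 ± 0.96 to 5.02 ± 0.82 CPM (-1.53, adjusted p = 3.5e-07). Of the other GARP subunits, Vps52 rose (0.21, adjusted p = 0.044) and Vps53 and Vps54 were not called (0.03, adjusted p = 0.76, and -0.05, adjusted p = 0.58). Among 6 Sec1/Munc18 genes outside the complex, 2 fell, Vps45 among them (log2 fold change -0.62, adjusted p = 0.0025). The edgeR and DESeq2 tests called 0 rises among these 6, where 1 rise had an unadjusted p under 0.05 and the block gave 1 rise. Of these 6, 2 fell and 1 rose against the 4OHT control (3 and 1 with the block). Stx16, Vti1a, Sar1b, Sec13, Vps51 and Vps45 kept their calls under all 16 alternatives.

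**Figure D4:**
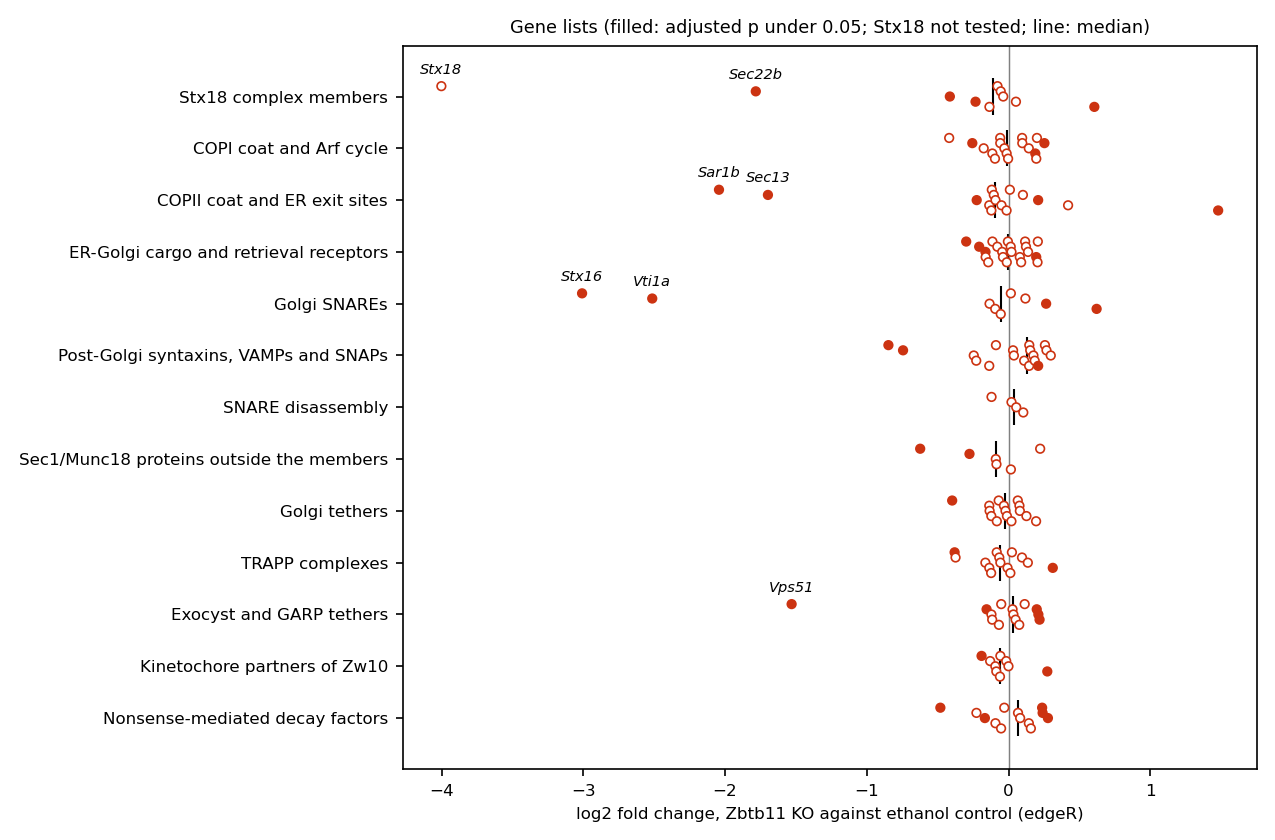
Log2 fold change of every tested gene in each list (x axis, labelled Zbtb11 KO against the ethanol control), 1 point per gene, filled where the adjusted p is under 0.05, with the short vertical line at the list median and vertical offsets for legibility only. The lists centre near 0, and the named genes, all with a log2 fold change of -1 or below, stand apart to the left. The filled point at 1.48 is Sec16b (adjusted p = 0.029), named here after its value was seen.

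The remaining lists are given by their counts and the called gene of smallest p. ER-Golgi cargo and retrieval receptors had 3 falls and 1 rise among 21 (6 and 3 with the block), led by Lman1, a cargo receptor for glycoproteins (-0.30, adjusted p = 0.0013). They had 4 falls and 5 rises against the 4OHT control (7 and 9 with the block). Post-Golgi syntaxins, VAMPs and SNAPs had 2 falls and 1 rise among 18 (4 and 4 with the block), with Snap47, a SNAP-family SNARE, at the smallest p (-0.74, adjusted p = 3.6e-07). This list had 3 falls and 4 rises against the 4OHT control (5 and 6 with the block). The 4 genes of SNARE disassembly had 0 calls by edgeR or DESeq2 and 0 at an unadjusted p under 0.05, and 1 fall with the block. With the 4OHT control as reference they had 1 rise (2 with the block) and 0 falls by edgeR, DESeq2 or an unadjusted p under 0.05.

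Golgi tethers had 1 fall, Cog4 (-0.40, adjusted p = 0.00034), and 0 rises among 15 (0 by DESeq2 and 1 at an unadjusted p under 0.05), and 3 falls and 1 rise with the block. The tethers had 4 falls (Cog4, Cog6, Cog7 and Gorasp2) and 1 rise, Golga2, against the 4OHT control (5 and 1 with the block). TRAPP genes had 1 fall, Trappc4 (-0.38, adjusted p = 0.0016), and 1 rise, Trappc10 (0.31, adjusted p = 0.0016), among 14 (2 and 1 with the block). The TRAPP list had 2 falls and 2 rises against the 4OHT control (7 and 2 with the block). Trappc4 was not among those 2 falls (-0.18, adjusted p = 0.069). For the other known roles of the tether, 9 kinetochore partners of Zw10 had 1 fall, Zwilch (-0.19, adjusted p = 0.019), and 1 rise, Spdl1 (0.27, adjusted p = 0.0024), and 2 falls with the block. The Zwilch call was lost with library totals and without ethanol control replicate 2. The partners had 5 falls (Bub1, Zwilch, Kntc1, Ttk and Bub1b) and the same rise against the 4OHT control, also with the block. These falls numbered 3 without 4OHT control replicate 3, and 2 with library totals, as did those of the Golgi tethers with library totals. The genes named by the comparison with the 4OHT control, and the GARP subunits and Stx6 above, were named after their values were seen. The 13 factors of nonsense-mediated decay had 2 falls and 3 rises (4 and 4 with the block), among them Smg8 (-0.48, adjusted p = 3.3e-05), and 2 falls and 2 rises against the 4OHT control (5 and 4 with the block). Against the ethanol control, list medians ranged from -0.09 to 0.13, beside 0.01 over all genes tested.

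The word in the printed promoters was found by counting every 6-letter word, on both strands, in RefSeq windows from 250 bases before to 50 bases after a transcript start. Such windows were held for 11447 of the tested genes and for all 10 members. CGGAAC, with its reverse complement GTTCCG, had the largest difference in share between the 60 steepest falls (4-fold or more against each control) and all genes: 40 of the 60 held it, or 66.7%, against 15.4% of all genes. Stx18 is among those 60, so its matches helped to choose the word and are not evidence for it. In genes that fell 2-fold or more against the ethanol control but were outside the 60, the share was 43.2% of 81. It was 19.5% of 1613 genes with a smaller fall, 13.9% of 8189 genes not called, 17.7% of 1216 genes with a rise under 2-fold and 9.03% of 288 genes that rose 2-fold or more. Base composition was not matched between these classes.

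**Figure D5:**
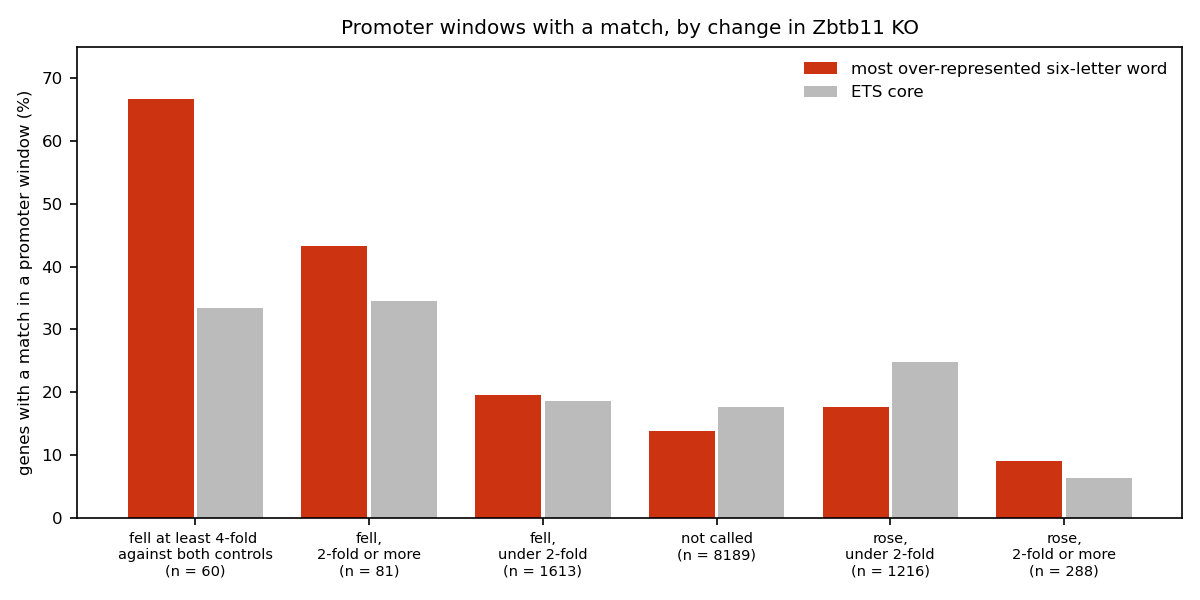
Share of genes (y axis, %) with a match in a promoter window, by class of change in the labelled Zbtb11 KO libraries against the ethanol control, for the chosen word and for the ETS core as a second word of similar letters, with the number of genes in each class under its bars. The share of the chosen word goes from 66.7% in the class it was chosen in to 43.2%, 19.5% and 13.9% in the next classes, while the ETS core is at 33.3%, 34.6%, 18.6% and 17.6%.

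Of the 10 genes, 4 held CGGAAC: Stx18, Sec22b, Rint1 and Stx5a. Stx18 had 3 matches, beginning 77 and 37 bases before the transcript start and once just after it, and Sec22b 1 match beginning 93 bases before. Sec22b was not among the 60 genes used to choose the word. The matches of Rint1, 21 bases before its start, and of Stx5a, 23 bases before its second start, belong to a gene that rose and to a gene that was not called, so the word did not go with a fall in every member. Scfd1 and Nbas fell and held no match. The longer word CGGAACC was in 6.55% of all windows and in those of Stx18 and Rint1. Short stretches around the word are shown for Rint1 and Stx5a, for the genes most like Stx18 and for the transport genes that fell 2-fold or more, to set the flanking letters side by side; capitals mark the word.
Rint1 (chr5:23787678-23787707, plus strand): aggccaagagaaCGGAACcagagagtcggt
Stx5a (chr19:8741768-8741797, plus strand): tcttccaacaggCGGAACtttgacggaggt
Alg3 (chr16:20610787-20610816, minus strand): agagcgtgagacCGGAACctagtgtgtgag
Zmpste24 (chr4:121098289-121098318, minus strand): caggaagaaggcCGGAACctttgaattgga
5730455P16Rik (chr11:80378075-80378104, minus strand): ttcgggaggcggCGGAACtcagatgtgcga
Stx16 (chr2:174076210-174076239, plus strand): agctcccgctccCGGAACgttgcaagcaat
Vti1a (chr19:55315846-55315875, plus strand): gcccgggctcagCGGAACagattttctcct
Sar1b (chr11:51763608-51763637, plus strand): accgcaaggaggCGGAACtgagggcgagcg
Sec13 (chr6:113740765-113740794, minus strand): atccagaagacgCGGAACctttgtgtgagt

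Of the 4 genes most like Stx18 that have a window, 3 held the word (Alg3, Zmpste24 and 5730455P16Rik) and Nkap did not. Of the transport genes that fell 2-fold or more, Stx16, Vti1a, Sar1b and Sec13 all held it, and Vps51 has no window. Apart from Sec13, the genes in these lines that fell were among the 60 on which the word was chosen. In Alg3, Zmpste24 and Sec13, as in the 2 upstream matches of Stx18, the word was followed by CT. Other letters followed it in the printed matches of Sec22b, 5730455P16Rik, Stx16, Vti1a, Sar1b, Rint1 and Stx5a. The CT was picked out after the sequences were seen, and its share after the word in other windows was not counted. None of the other words looked for was in all 10 genes. The ETS core CCGGAAG, which shares the letters CGGAA with the chosen word, was in 18.4% of all genes and, of the 10, in Scfd1. The NF-Y core CCAAT, in 42.7%, was in 6 (Use1, Sec22b, Scfd1, Scfd2, Nbas and Stx5a). A word of the unfolded protein response, which raises secretory genes under stress of the endoplasmic reticulum, TGACGTGG, was in 1.03% and in Scfd1 and Stx5a. A match is a run of letters and not a measured binding site.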

How the data were processed

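The deposited files hold raw counts of reads per gene, 1 file per library, made by the authors and listed under versioned Ensembl gene identifiers. The submitters' processing notes name cutadapt, STAR, HTSeq, edgeR, Bowtie 1.1.2, MACS2, DiffBind and the build mm9, with no role for each, and the strand setting of the counting was not given. The closing rows without a gene entered neither totals nor tests: reads in no feature were 26.4% to 33.8% of a file and ambiguous reads 0.78% to 0.91%. Symbols came from GENCODE M21 and matched 32620 of 37310 rows. That annotation is on another build than the files, so gene coordinates are not given; coordinates belong to RefSeq promoter windows on GRCm38.p6.

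The counts were tested with edgeR 4.0.16 (limma 3.58.1, R 4.3.3): filterByExpr by group, TMM scaling, robust quasi-likelihood F test, 1 fit of 9 libraries with a mean per group and 6 residual degrees of freedom, and Benjamini-Hochberg adjustment over 16224 genes. The script was tested on simulated data. "Rose", "fell" and "called" mean an adjusted p under 0.05. CPM are TMM scaled, and levels between genes were divided by length in kb. Library totals of 16909139 to 23544893 gene reads set the counting precision.

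The alternatives were a replicate block, RLE factors, library totals, 2 other filters, DESeq2 1.42.0, fits of 2 groups and leaving out each library. Replicate numbers paired the libraries: deviations from group means correlated at 0.11 to 0.31 in all 9 same-number pairs and at -0.23 to -0.02 in the 18 others. Centring on group means pushes the other pairs below 0 when same-number pairs lie above it, so the 2 ranges are not independent. The labels do not say what a number marks.

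The genes named are the 10 members, Zbtb11, up to 3 called genes of smallest p per list, the 5 genes most like Stx18 and its nearest coding neighbours; not all are printed. Members and lists were chosen with earlier results of these data known. The promoter word was chosen on the steep falls. Wdr36 and Vps51 have no promoter entry.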

Additional observations from a re-analysis of the deposited data

Results flagged for a closer look

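Reads assigned to no annotated gene lie outside the main measurement and made up a larger share of the KO-labelled libraries than of either control. The mean share was 33.3% ± 0.53 (SD, n = 3) in the KO-labelled libraries, 27.7% ± 1.18 in the ethanol control and 27.1% ± 0.41 in the 4OHT control, and the KO-labelled libraries did not overlap the controls. Where these reads lie, and their part in the levels of Stx18 or its partners, was not tested.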

How the results depend on the processing

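Of 448 log2 fold changes of the members under alternatives, without Stx18 in the KO comparisons that chose it, 426 kept their direction and side of the threshold. The falls of Stx18 ranged from -4.36 to -3.83 against the ethanol control and from -4.58 to -4.06 against the 4OHT control. With the replicate block, the members that rose between the controls numbered 2 (Nbas added), Zw10 fell against the ethanol control (adjusted p = 0.014), and the genes called went from 4417 to 6936 (KO-labelled against ethanol control), from 2987 to 5323 (between controls) and from 6319 to 8337 (against 4OHT control). No other call on a member changed with the block. With library totals, members that rose against the 4OHT control numbered 2 (Zw10 added, 0.18, adjusted p = 0.035), the share of rises among calls went from 47.8% to 66.5% (ethanol control) and from 49.1% to 64.4% (4OHT control), and the median of all genes to 0.09 and 0.10. Leaving out 1 library, the members that fell between the controls numbered 0 to 1 (0 without ethanol control replicate 2) and those that rose 0 to 1. Signs turned only among uncalled differences. With library totals they were 0.016 for Use1 and 0.034 for Stx5a against the ethanol control, and 0.028 for Bnip1 and 0.055 for Stx5a against the 4OHT control. Leaving out 1 library gave -0.11 to 0.00016 for Use1, -0.034 to 0.12 for Bnip1 and -0.12 to 0.038 for Stx5a against the ethanol control, -0.14 to 0.015 for Bnip1 and -0.10 to 0.049 for Stx5a against the 4OHT control, and -0.074 to 0.062 for Stx5a between the controls. Of 1440 list counts, most between 0 and 3, 294 moved by over 1.5 times. The cause of these shifts was not tested. The 11 to 21 reads of Stx18 per KO-labelled library limit the precision of its remaining level.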
